A study of Mus musculus with 48 samples.

Results

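*2210418O10Rik*, *Gm14296* and *Gm14434* are 3 genes of a zinc finger cluster on mouse chromosome 2, and their transcripts were compared between human *APOE* alleles in mouse cerebral cortex. They were picked from earlier results of these data because their levels were lower in *APOE*4 than in *APOE*3 mice, so their allele differences are given below as description, with no test. All 3 were found among the 18939 genes of the *APOE*-TR table and among the 27082 genes of the B6 table. Although the genes were proposed as lost in *APOE*4, every *APOE*4 mouse had reads assigned to each of the 3. The genes share sequence with close copies, so such reads do not show whether a gene itself was transcribed. In the deposited values, *2210418O10Rik* and *Gm14296* were at 1.48% to 2.58% of the *APOE*3 group means across strata of sex and exposure. *Gm14434* was at 25.5% to 36.3%.

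RNA was sequenced from the cerebral cortex of 48 mice in 12 groups of 4. The *APOE*-TR mice carried human *APOE* in place of the mouse gene, as the *APOE*3 or the *APOE*4 allele, and were 6 months old by their labels. Females and males of each allele breathed filtered air (controls) or nPM, a re-aerosolized nano-sized fraction of urban particulate matter, for 5 hr on each of 3 days per week over 15 weeks. C57BL/6J (B6) mice, with the mouse *Apoe* gene, were 4 months old by their labels and followed the same weekly schedule for 8 weeks, again with 4 females and 4 males per exposure. Each allele was studied in its own targeted-replacement line, so allele and line cannot be told apart, and B6 mice differed from *APOE*-TR mice in exposure run, age and table as well as in genotype. Nothing in the labels gives the litter or library batch.

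Estimated depth over the listed genes was 17.8 to 31.3 M reads for *APOE*-TR mice and 2.05 to 24.4 M for B6 mice. *APOE*3 female controls 61 and F6 stood apart, with summed CPM (the depth-scaled read counts of the deposited table) of 880442 and 792914 against at most 739008 in any other *APOE*-TR mouse, and results that rest on them are given with and without them. *Xist* was at least 90.3 CPM in every female and *Ddx3y* at least 6.81 CPM in every male, and in the opposite sex they were at most 0.397 and 0.120 CPM. Markers of neurons, astrocytes, microglia and oligodendrocytes were present in all mice, at summed levels whose ranges overlapped between alleles. For neurons the sum ran from 3305 to 5287 CPM in *APOE*3 and from 2898 to 3893 CPM in *APOE*4 mice. In these bulk samples, fewer cells of a type and less RNA per cell cannot be told apart.

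C2H2 zinc finger proteins bind DNA through repeated finger modules, each folded around a zinc ion by paired cysteines and histidines. Many carry a KRAB domain, which recruits the corepressor TRIM28 and the histone methyltransferase SETDB1 and is known for silencing retrotransposons. Genes of this class arise by tandem duplication and often lie in clusters of near-identical copies. The roles of the 3 genes in cortex are not described here, because they are known mainly as predicted members of this family.

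On mm10, *2210418O10Rik* lies on the plus strand of chromosome 2 from 176226565 to 176261873, *Gm14434* on the minus strand from 176470369 to 176486750, and *Gm14296* on the minus strand from 176892509 to 176927814. The annotated protein of *Gm14434* has 498 residues and 13 matches to the C2H2 pattern. *2210418O10Rik* and *Gm14296* have annotated proteins of 134 residues with 1 match each, below the 3 matches used here to name a zinc finger gene, so both are family members by position and sequence. Their longest protein-coding transcripts in GENCODE vM21 are both 3823 bases long, with 0 differences between them, although the genes lie on opposite strands. The methods give reads of over 50 bases. Of all 50-base stretches of the annotated transcripts, 100% of those of *2210418O10Rik* also occur in *Gm14296*. For *Gm14434*, 100% occur in at least 1 other gene, with 97.85% in *0610010B08Rik*, 97.78% in *Gm14308*, 87.3% in *Gm4724* and 71.0% in *Gm14305*. Among the annotated *Gm14296* transcripts, 56.1% of such stretches occur in another gene. The submitters kept uniquely mapping reads, so how reads were assigned among these copies could move each value, and the part of this in the results was not tested.

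The region upstream of the genes shows the same closeness, and both start windows that could be matched are printed for that reason. They are RefSeq sequence on GRCm38.p6, from 250 bases before to 50 bases after the start, at chr2:176226315-176226614 on the plus strand for *2210418O10Rik* and chr2:176486700-176486999 on the minus strand for *Gm14434*. Capitals mark the 7 bases that differ within the 258 that align (bases 43 to 300 of the first and 1 to 258 of the second), with 251 identical (97.3%).
2210418O10Rik: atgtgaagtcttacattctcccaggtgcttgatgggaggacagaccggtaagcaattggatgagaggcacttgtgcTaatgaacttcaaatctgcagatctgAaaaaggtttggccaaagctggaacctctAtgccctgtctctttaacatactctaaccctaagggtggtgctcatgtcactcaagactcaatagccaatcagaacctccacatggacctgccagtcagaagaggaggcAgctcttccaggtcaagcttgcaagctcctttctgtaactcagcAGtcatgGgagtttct
Gm14434: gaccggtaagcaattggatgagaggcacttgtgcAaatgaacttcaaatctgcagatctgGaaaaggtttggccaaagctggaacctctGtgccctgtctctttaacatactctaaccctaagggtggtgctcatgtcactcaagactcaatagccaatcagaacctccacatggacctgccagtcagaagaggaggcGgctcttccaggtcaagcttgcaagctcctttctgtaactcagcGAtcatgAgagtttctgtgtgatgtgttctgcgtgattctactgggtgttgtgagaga
Outside the aligned stretch the letters are simply not compared. The window of *Gm14434* was as close to that of *2210418O10Rik* as the windows of *Gm14308* and *Gm4724*, which had the same 251 of 258 bases. Those of *Gm6710* (97.9% over 284 bases) and *Gm14322* (97.8% over 267 bases), which did not pass the test for an allele difference, were as close. The letters CCAAT, searched on both strands with overlaps allowed, occurred at least 2 times in all 21 zinc finger windows of the region that were matched, and in 11.7% of 32851 promoter windows genome-wide. A match of letters is a description and not a binding site.

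*2210418O10Rik* stood at 15.7 to 22.2 CPM in the 16 *APOE*3 mice, from 395 to 1008 reads, and at 0.197 to 0.671 CPM in the 16 *APOE*4 mice, from 5 to 21 reads. In *APOE*3 female controls its values were 15.7, 16.5, 18.2 and 19.7 CPM, and in *APOE*3 female nPM mice 17.3, 17.6, 19.0 and 19.1 CPM. *APOE*3 male controls had 19.0, 19.4, 20.1 and 20.5 CPM and *APOE*3 male nPM mice 16.9, 19.0, 20.7 and 22.2 CPM. The 4 *APOE*3 groups overlapped one another, and within a group the highest mouse was at most 1.31 times the lowest. In *APOE*4 female controls the values were 0.197, 0.254, 0.302 and 0.534 CPM, and with nPM they were 0.253, 0.353, 0.393 and 0.399 CPM. *APOE*4 male controls had 0.376, 0.402, 0.426 and 0.671 CPM, against 0.232, 0.412, 0.424 and 0.433 CPM in nPM males. The 4 *APOE*4 groups also overlapped one another, with a wider relative spread of up to 2.71 times between mice of 1 group, on few reads. Group means fell between 17.5 ± 1.80 and 19.7 ± 0.700 CPM (SD, n = 4) in *APOE*3 and between 0.322 ± 0.148 and 0.469 ± 0.137 CPM in *APOE*4, so that *APOE*3 was 42.1 to 54.4 times higher in each stratum.

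*Gm14296*, with the same coding transcript on the opposite strand, gave nearly the same values. In *APOE*3 female controls it stood at 15.9, 17.1, 17.5 and 17.8 CPM, and in *APOE*3 female nPM mice at 15.9, 16.7, 17.5 and 19.2 CPM. *APOE*3 male controls were at 17.2, 19.4, 19.8 and 22.5 CPM and *APOE*3 male nPM mice at 16.7, 18.5, 19.7 and 20.7 CPM. All 16 of these values came from at least 370 reads. *APOE*4 female controls were at 0.164, 0.272, 0.318 and 0.334 CPM, and *APOE*4 female nPM mice at 0.144, 0.197, 0.318 and 0.366 CPM. In *APOE*4 males the values were 0.398, 0.509, 0.521 and 0.610 CPM for controls and 0.212, 0.336, 0.349 and 0.385 CPM for nPM. These 16 values came from 3 to 21 reads, and every male control lay above every male nPM mouse, a difference tested below. *APOE*3 group means were 38.7 to 67.5 times the *APOE*4 means across the 4 strata. Deposited CPM were read as standing 1 read above the count. That raises the lowest values most and so lowers these ratios, also those of *2210418O10Rik*. The ratio of *2210418O10Rik* to *Gm14296* CPM, for transcripts of equal annotated coding length, was 0.911 to 1.14 in *APOE*3 mice (median 1.03) and 0.667 to 2.0 in *APOE*4 mice (median 1.11).

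*Gm14434*, which encodes the multi-finger protein of the 3, differed between alleles by a smaller amount and kept over 100 reads in every *APOE*4 mouse. In *APOE*3 female controls its values were 12.3, 12.5, 16.4 and 18.1 CPM, with mice F6 and 61 highest, and in *APOE*3 female nPM mice 9.83, 10.7, 10.8 and 12.9 CPM. *APOE*3 male controls had 10.1, 10.4, 10.6 and 11 CPM, and *APOE*3 male nPM mice 8.66, 9.90, 11 and 11.2 CPM. The 2 highest *APOE*3 values were thus those of the mice that stood apart in summed CPM, and the other 14 lay between 8.66 and 12.9 CPM. *APOE*4 female controls had 3.53, 3.68, 3.84 and 4.07 CPM and *APOE*4 female nPM mice 3.67, 3.78, 4.26 and 4.30 CPM. *APOE*4 males had 3.24, 3.43, 3.76 and 4.79 CPM as controls and 3.31, 3.39, 3.44 and 3.63 CPM with nPM. The *APOE*4 groups overlapped one another, except that every female nPM mouse (3.67 to 4.30 CPM) lay above every male nPM mouse (3.31 to 3.63 CPM). All these values came from 106 to 169 reads per mouse. *APOE*3 means exceeded *APOE*4 means by 2.76 to 3.92 times, with the highest ratio in female controls. In that stratum the log2 difference was −1.76 (standard error 0.133), or −1.57 (standard error 0.122) without mice 61 and F6.

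**Figure D1:**
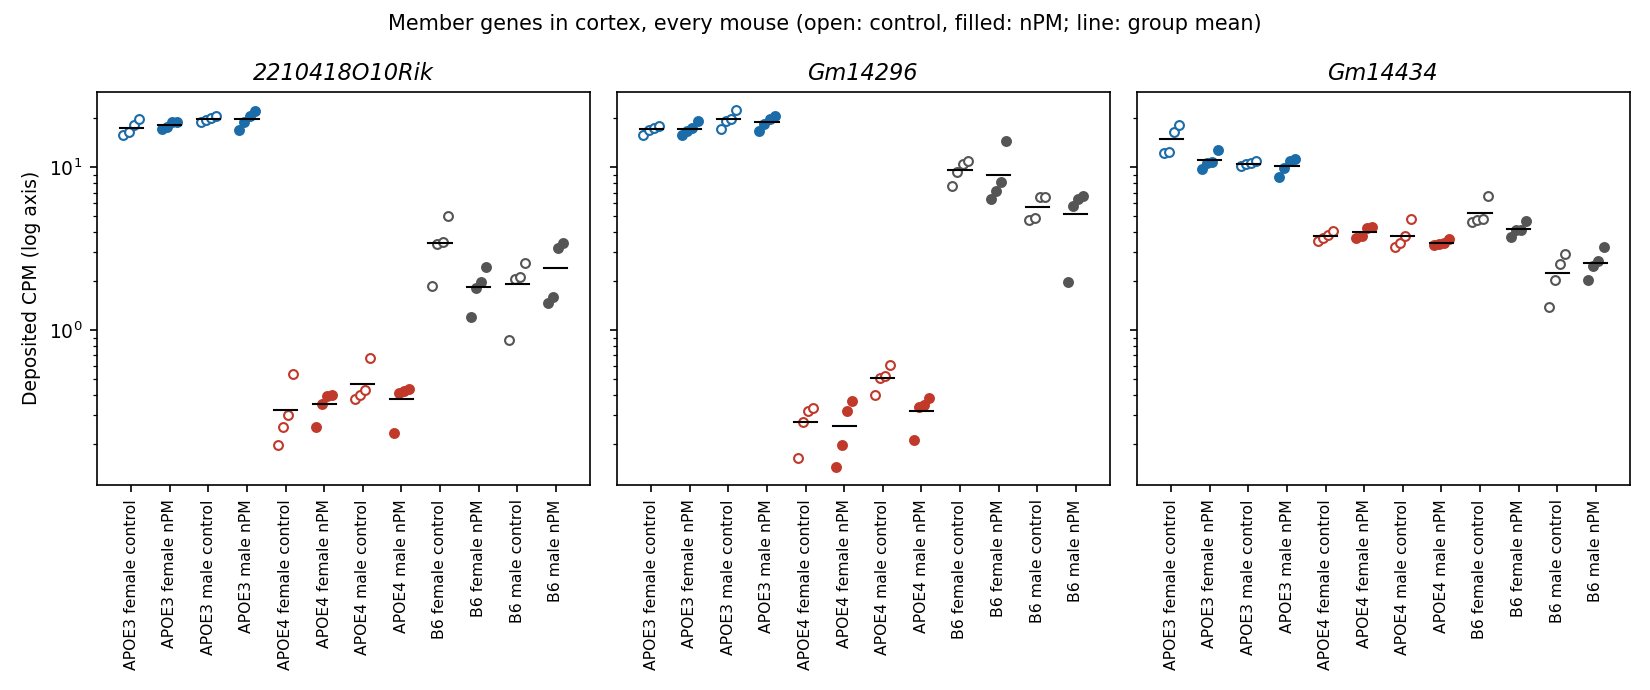
CPM of the 3 genes in each of 48 mice (log axis) across the 12 groups of genotype, sex and exposure; open circles are controls, filled circles nPM mice, and lines group means. *APOE*3 values (8.66 to 22.5 CPM) lay above all *APOE*4 values of the same gene, by a wide gap for *2210418O10Rik* and *Gm14296* and a narrow one for *Gm14434*, and B6 values lay between or, for *Gm14434*, over the *APOE*4 range.

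The deposited CPM of all 16 *APOE*4 mice lay below those of all 16 *APOE*3 mice for each of the 3 genes, as for 0.18% of the 18939 genes of the table. Since the genes were chosen on this contrast, nothing is read from that share. In the limma model over 32 mice with terms for sex and nPM, the log2 difference of CPM + 0.5 was −4.48 for *Gm14296* (standard error 0.056) and −4.45 for *2210418O10Rik* (standard error 0.057), the 2 lowest of 15958 genes. *Gm14434*, at −1.47 (standard error 0.058), was the tenth lowest. The 0.5 CPM added before taking logs exceeds the median *APOE*4 level of the first 2 genes, so their log2 differences understate the ratio of means. With 0.1 CPM added they were −5.42 and −5.32, and with 2 CPM added −3.10 and −3.11.

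The allele difference was present in controls and in nPM mice of both sexes. Across female controls, female nPM mice, male controls and male nPM mice, the log2 difference was −4.42, −4.45, −4.39 and −4.53 for *2210418O10Rik*, with standard errors of 0.103 to 0.153. For *Gm14296* it was −4.47, −4.55, −4.32 and −4.56, and for *Gm14434* −1.76, −1.34, −1.36 and −1.43. The difference of the nPM response between alleles (*APOE*4 minus *APOE*3), which the choice of genes did not use, was −0.09 (standard error 0.115) for *2210418O10Rik*, −0.17 (0.107) for *Gm14296* and 0.18 (0.104) for *Gm14434*. None of the 3 passed 5% FDR (adjusted p = 0.662, 0.449 and 0.446 from limma) or an unadjusted p of 0.05, and the same was found with voom, edgeR and DESeq2. Over the whole table, 0% of 15958 genes passed 5% FDR for this interaction in limma, while 1687 (10.6%) had an unadjusted p under 0.05, and DESeq2 called 1 gene. A shift of the size seen for *Gm14434* (0.18 against an allele difference of −1.47) cannot be separated from 0 at this spread. Without mice 61 and F6 it was 0.09 (standard error 0.099). For *Gm14296* the interaction ran from −0.41 to −0.07 over processing alternatives, as the 0.5 CPM added narrows it.

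Responses to nPM within each sex and genotype were small beside the allele differences, on which the genes were chosen. At an unadjusted p under 0.005, 0 of the 18 tests (3 genes in 6 strata) passed in limma, where the share of all genes that passed was 0.672% (females) and 0.154% (males) with *APOE*3, 0.26% and 0.178% with *APOE*4, and 1.18% and 0.242% in B6 mice. Of the 12 *APOE*-TR tests, 2 had an unadjusted p under 0.05 in limma, voom and edgeR and 1 in DESeq2. Over all genes, limma gave such a p for 21% in *APOE*3 females, 2.25% in *APOE*3 males, 5.61% in females with *APOE*4 and 4.18% in males with *APOE*4. The 2 tests were those of *Gm14296* in *APOE*4 males, at −0.30 (standard error 0.10, unadjusted p = 0.0127, adjusted p = 0.956 from limma), and of *Gm14434* in *APOE*3 females, at −0.34 (standard error 0.139, unadjusted p = 0.0394, adjusted p = 0.230). Neither gene showed such a difference in the other sex of the same allele. *Gm14296* was at −0.03 (standard error 0.124) in *APOE*4 females and *Gm14434* at −0.04 (standard error 0.087) in *APOE*3 males. Over processing alternatives the *Gm14296* value in *APOE*4 males ran from −0.71 to −0.11. At group means of 0.510 CPM in controls and 0.320 CPM with nPM, the 0.5 CPM added narrows this difference. Without mice 61 and F6 the *Gm14434* value in *APOE*3 females was −0.15 (standard error 0.136). In B6 mice the largest value was that of *2210418O10Rik* in females, −0.67 (standard error 0.354, unadjusted p = 0.0809 from limma), against 0.26 (standard error 0.379) in males. Standard errors in B6 mice were 0.304 to 0.379 and in *APOE*-TR mice 0.082 to 0.139, on the scale with 0.5 CPM added. For *2210418O10Rik* and *Gm14296* in *APOE*4 mice that addition narrows the response together with its spread. Their SD there was 17.1% to 46.0% of the group mean, against 14.9% to 42.4% in B6 mice. Smaller standard errors in *APOE*4 mice therefore do not mean that smaller relative responses of these 2 genes could have been detected. Elsewhere only larger responses could have been detected in B6 mice.

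**Figure D2:**
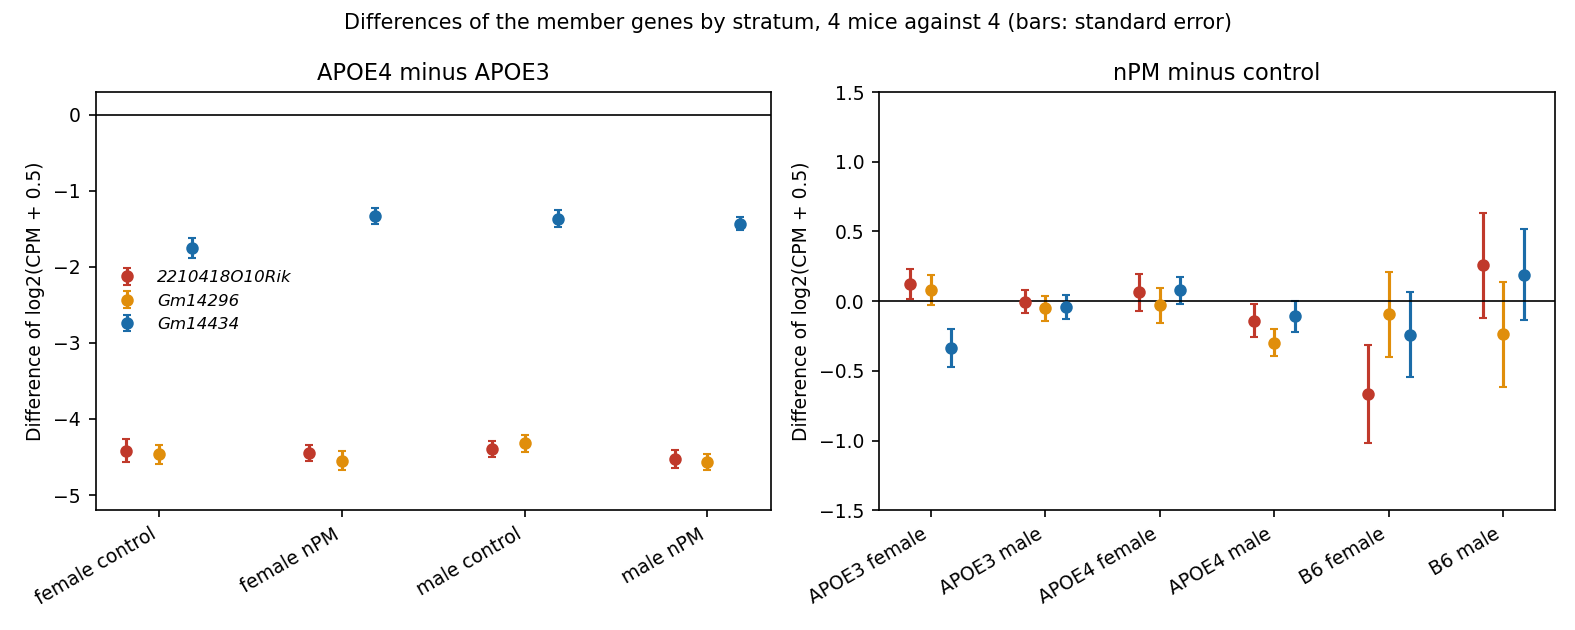
Differences of log2(CPM + 0.5) of the 3 genes with standard errors, on the left *APOE*4 minus *APOE*3 in 4 strata and on the right nPM minus control in 6 strata, each from 4 mice against 4. The allele differences lay between −4.56 and −4.32 for *2210418O10Rik* and *Gm14296* and between −1.76 and −1.34 for *Gm14434*, and the nPM differences lay between −0.67 and 0.26.

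Differences between the sexes were smaller than the allele differences. The genes were chosen on the allele differences, so nothing is read from that order. In *APOE*3 mice, females minus males differed by 0.25 on the log2 scale for *Gm14434* (standard error 0.074, limma adjusted p = 0.0041), by −0.19 for *Gm14296* (standard error 0.075, adjusted p = 0.0261) and by −0.17 for *2210418O10Rik* (standard error 0.081, adjusted p = 0.0641). Both *Gm14434* and *Gm14296* passed 5% FDR, but so did 65.2% of all genes in that contrast, and females had fewer reads (17.8 to 22.3 M) than any male (22.4 to 31.3 M). The *Gm14296* call was also lost without any 1 of male control 63, male nPM mouse 76, female control F6 or female nPM mouse 55 of *APOE*3, and *2210418O10Rik* passed without *APOE*4 male control 21, *APOE*4 female control 7 or *APOE*3 male nPM mouse 53. Without mice 61 and F6 neither passed, at 0.16 (adjusted p = 0.0719 from limma) and −0.16 (adjusted p = 0.110). In *APOE*4 mice *Gm14296* was lower in females, by −0.25 (standard error 0.075, adjusted p = 0.0158 from limma), where 21.2% of all genes passed. This value ran from −0.68 to −0.09 over processing alternatives. *2210418O10Rik* and *Gm14434* were at −0.14 and 0.10 there. In B6 mice *Gm14434* was higher in females by 0.84 (standard error 0.203, limma adjusted p = 0.00476) and *Gm14296* by 0.74 (standard error 0.244, limma adjusted p = 0.0289), where 27% of all genes passed. *2210418O10Rik* differed there by 0.21 (standard error 0.249, adjusted p = 0.558). The *Gm14296* call in B6 mice was lost without any 1 of 5 mice (controls 40, 41 and 3, and nPM mice 51 and 10). The allele difference itself did not pass a test of its difference between sexes for any of the 3 (0.03, −0.06 and −0.15, standard errors 0.104 to 0.115, smallest adjusted p = 0.275 from limma), where 20.5% of all genes passed. At an unadjusted p of 0.05 the count was 0 in limma, voom and DESeq2 and 1 in edgeR. Of all genes, 41.6% had such a p in limma. Over processing alternatives the value of *Gm14296* ran from −0.48 to 0.09.

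B6 mice, which carry neither human allele, gave a further reference level. *2210418O10Rik* in B6 female controls was at 1.86, 3.37, 3.46 and 5.01 CPM, and in B6 female nPM mice at 1.21, 1.80, 1.97 and 2.42 CPM. B6 male controls were at 0.871, 2.07, 2.12 and 2.57 CPM and B6 male nPM mice at 1.47, 1.60, 3.18 and 3.43 CPM. These values lay above the *APOE*4 range and below the *APOE*3 range without overlap, the lowest of them at an estimated 2.44 reads. *Gm14296* was at 7.67, 9.31, 10.4 and 10.9 CPM in B6 female controls and at 6.39, 7.14, 8.15 and 14.4 CPM in B6 female nPM mice. In B6 males it was at 4.75, 4.90, 6.54 and 6.59 CPM for controls and at 1.98, 5.77, 6.36 and 6.65 CPM for nPM. It too lay between the *APOE*4 and *APOE*3 ranges, and unlike in *APOE*-TR mice it exceeded *2210418O10Rik* in every B6 mouse, the ratio of *2210418O10Rik* to *Gm14296* being 0.125 to 0.745 (median 0.347). Estimated reads were whole numbers, within 0.1 read, in 4 of 16 B6 mice for *2210418O10Rik*, 12 for *Gm14296* and 13 for *Gm14434*. In *APOE*3 and in *APOE*4 mice they were whole in all 16 for each gene. What this difference between the tables does to the B6 levels and to this ratio was not tested. *Gm14434* was at 4.59, 4.76, 4.81 and 6.70 CPM in B6 female controls and at 3.74, 4.11, 4.13 and 4.68 CPM in B6 female nPM mice. B6 males had 1.39, 2.04, 2.54 and 2.94 CPM as controls and 2.02, 2.46, 2.65 and 3.25 CPM with nPM. Its B6 values (median 3.49 CPM) overlapped those of *APOE*4 mice (median 3.68 CPM) and stayed below those of *APOE*3 mice (median 10.9 CPM).

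In order of median CPM, *APOE*3 was highest for each gene, at 19.0, 17.7 and 10.9 CPM for *2210418O10Rik*, *Gm14296* and *Gm14434*. B6 followed at 2.09 and 6.62 CPM and *APOE*4 was lowest at 0.396 and 0.335 CPM for the first 2, while for *Gm14434* the B6 and *APOE*4 levels were not separated by their spread. Of 16952 genes in both tables, 0.973% had all B6 values above all *APOE*4 values and 15.5% had all B6 values below all *APOE*3 values, which the 3 genes met in 2 and 3 cases. The genes were chosen on low *APOE*4 against *APOE*3 values, which favours both outcomes, so nothing is read from these shares. The 2 tables were scaled separately and no test was made between them. The median gene stood at 5.46 to 5.93 CPM in B6 mice and at 9.76 to 10.8 CPM in *APOE*-TR mice. Relative to the median gene of each mouse, the medians in *APOE*3, B6 and *APOE*4 were 1.83, 0.360 and 0.0379 for *2210418O10Rik*, and 1.73, 1.14 and 0.0323 for *Gm14296*. For *Gm14434* they were 1.03, 0.605 and 0.350, so that B6 lay between the alleles for all 3 on this scale. The B6 ranges then reached into those of *APOE*3 for *Gm14296* (up to 2.64) and *Gm14434* (up to 1.20) but not for *2210418O10Rik* (up to 0.895, against at least 1.55). Gene models also differed: in the B6 table *2210418O10Rik* ends at 176240329 and *Gm14434* begins at 176473278, while *Gm14296* spans nearly the same bases as in the *APOE*-TR table. What the change of model does to the B6 levels was not tested.

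**Figure D3:**
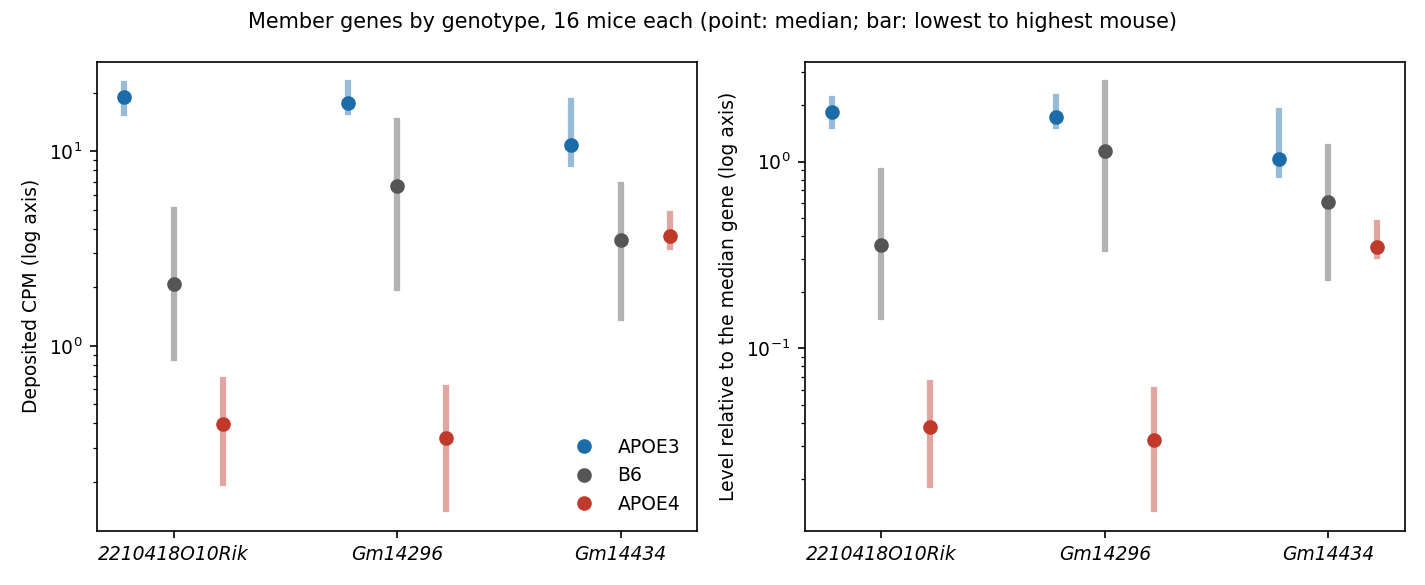
Median (point) and lowest to highest mouse (bar) of each gene in 16 *APOE*3, 16 B6 and 16 *APOE*4 mice, as deposited CPM on the left and relative to the median gene of each mouse on the right, both on log axes. B6 medians of *2210418O10Rik* and *Gm14296* lay between the alleles on both scales, while the B6 range of *Gm14434* overlapped *APOE*4 on both.

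The rest of the cluster was examined over all 41 genes of the *APOE*-TR table that start within 2 Mb of the outermost of the 3, on chromosome 2 from 174226565 to 178892509. Of the other 38, 19 encode a protein with at least 3 C2H2 matches. All 19 could be tested in the 32-mouse model, and 13 were lower and 0 higher in *APOE*4 at 5% FDR, where 3.67% of all 15958 genes tested were lower. Their median log2 difference was −0.53, against 0.00 over all genes. These neighbours share sequence with the 3 genes and among themselves, so their values are not independent readings. The lowest were *Gm14295* at −2.33 (standard error 0.161, adjusted p = 2.12e-12 from limma), whose annotated protein has 25 C2H2 matches, and *Gm14305* at −2.06 (standard error 0.087, adjusted p = 4.18e-18). *Gm4724* (−1.54), *Zfp973* (−1.49), *Gm14308* (−1.48), *Zfp966* (−1.47), *Zfp965* (−1.42), *Zfp967* (−1.40) and *0610010B08Rik* (−1.22) formed a group near the value of *Gm14434*. *Gm14326* (−0.53), *Gm14393* (−0.40), *Gm14325* (−0.33) and *Gm14391* (−0.19) were called at smaller differences. The *Gm14391* call was lost without mice 61 and F6, at −0.14 (adjusted p = 0.106 from limma). *Gm14308* and *Gm4724*, in which most 50-base stretches of *Gm14434* occur, also had levels near its own. *Gm14308* was at a median of 10.9 CPM in *APOE*3, 3.80 in *APOE*4 and 3.35 in B6 mice.

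The larger differences lay next to each other. From *Gm14440* (start at 175275125) to *Gm14296* (start at 176892509), a stretch of 1.62 Mb, 13 of 16 genes tested had a log2 difference below −1, and 0 of 22 did in the rest of the region. The 13 include the 3 chosen genes, whose low values were the reason for their choice and of which *Gm14296* sets the border. Without them the count was 10 of 13 within the same borders. The exceptions inside the stretch were *Gm6710*, with a protein of 16 C2H2 matches, at −0.03 (standard error 0.058), *Gm14405* at −0.16 (standard error 0.061) and *Gm14288* at −0.62 (standard error 0.093). The first zinc finger genes beyond it, *Gm14391* on one side and *Gm14403* on the other, were at −0.19 and −0.08. The borders were set at the first and the last gene below −1, after the values were seen. The count of 0 outside them therefore follows from the choice of borders, and they carry no test. Among the 19 genes of the region without zinc fingers by the rule, 16 could be tested and 3 were lower, *Gm14440* at −1.36, *Gm14288* at −0.62 and *Atp5e*, which encodes a subunit of ATP synthase, at −0.46 (standard error 0.140, adjusted p = 0.0473 from limma). Without mice 61 and F6 *Atp5e* did not pass, at −0.27 (standard error 0.083, limma adjusted p = 0.0532). Its difference ran from −1.21 in female controls to −0.07 in both male strata. The other 13 were not called and lay between −0.20 (*Edn3*) and 0.27 (*Zfp831*). The annotated proteins of *Gm14440* (64 residues) and *Gm14288* (88 residues) hold the letters EEW, as do those of *2210418O10Rik* and *Gm14296*. These 2 chosen genes also miss the 3-match rule, so the rule does not place *Gm14440* and *Gm14288* outside the family. *Gm14327*, with the same letters in 64 residues, was at 0.06 and was not called. The letters were not found near the start of the *Gm14434* protein. Among the zinc finger neighbours some lacked them there, such as *Gm4724* and *Gm14308*, and others held them, such as *Zfp966*. Their share over all proteins was not counted, so the letters do not mark the family.

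**Figure D4:**
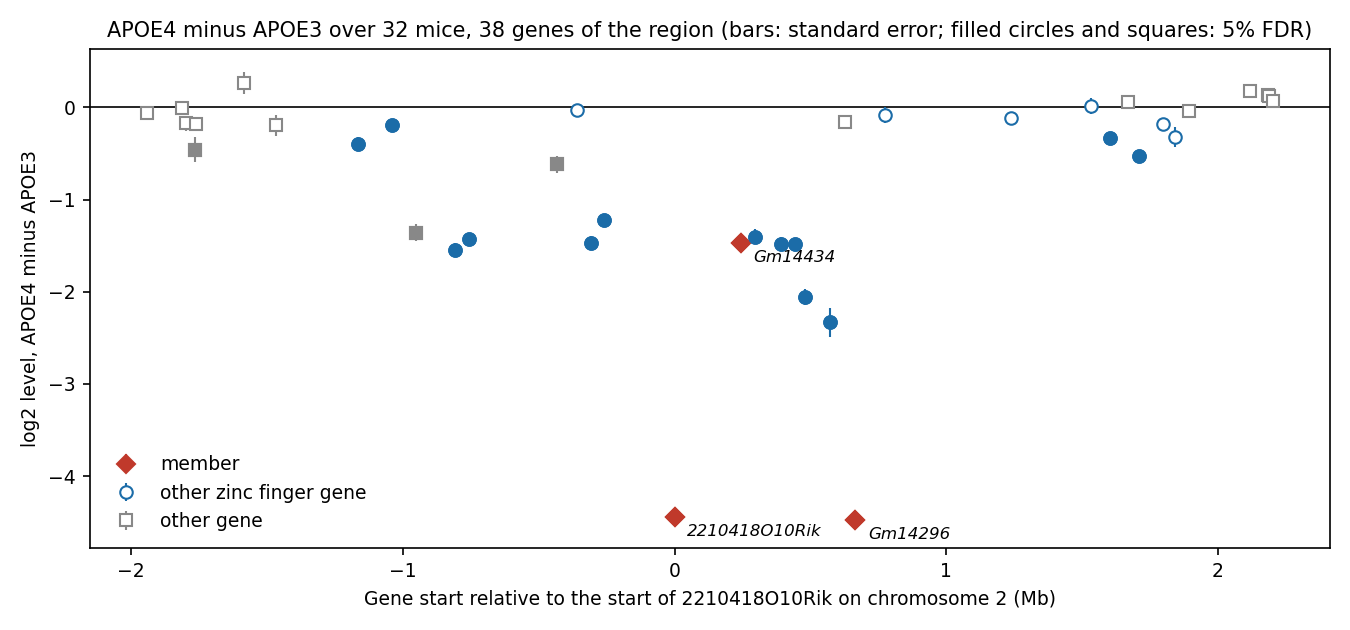
log2 difference between *APOE*4 and *APOE*3 over 32 mice, with standard errors, for 38 tested genes of the region against the distance of their start from that of *2210418O10Rik* (Mb). Filled circles (zinc finger genes) and squares (other genes) passed 5% FDR, and diamonds are the 3 chosen genes, which carry no test. The points below −1 lie between −0.95 and 0.67 Mb.

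The neighbours were also compared within each stratum. At 5% FDR, 9 of the 19 were lower in female controls, 9 in female nPM mice, 9 in male controls and 10 in male nPM mice, and 0 were higher in any of the 4. Over all genes tested, 0.152%, 0.115%, 0.267% and 0.315% were lower in these strata. The log2 difference of *Gm14305* ran from −2.58 to −1.84 over the 4 strata and that of *Gm14308* from −1.74 to −1.35. *Gm14295* ranged further, from −3.44 to −1.80. All 16 *APOE*4 mice lay below all 16 *APOE*3 mice for 9 of the 19 neighbours. The same held for 1 of the 19 other genes of the region and for 0.18% of all 18939 genes. In the B6 table, 12 of the 13 lower neighbours were listed, and the B6 median was below the *APOE*3 median in 12 of 12 as deposited CPM and in 11 of 12 relative to the median gene. For the other 6 listed neighbours, those not called, it was below in 5 of 6 on both scales, so a lower B6 level did not set the called neighbours apart.

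Genes that act with KRAB zinc finger proteins were examined as a list of 18 cofactors. All 18 were tested between alleles, 0 were higher, where 2.29% of all genes were higher and 3.67% lower, and 1 was lower, *Hdac1*, which encodes a histone deacetylase, at −0.42 (standard error 0.067, adjusted p = 9.21e-05 from limma). *Trim28* (0.22, standard error 0.083, adjusted p = 0.0762) and *Setdb1* (0.22, standard error 0.075, adjusted p = 0.0601) did not pass, and the highest difference, that of *Atf7ip*, was 0.44 (adjusted p = 0.101). The median of the list was 0.07, and 1 lower gene of 18 is near the share over all genes. Of 366 genes named *Zfp* outside the region, 356 were tested, 5 were higher and 4 lower, with a median of 0.01 and a range from −0.31 to 0.52.

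The 3 chosen genes were left out when genes were ranked by how closely they followed each of the 3. Among the other genes, those whose log2 level followed most closely over the 32 *APOE*-TR mice were neighbours. For *2210418O10Rik* they were *Gm14305* (r = 0.97), *Zfp966* (r = 0.97) and *Zfp965* (r = 0.97), and for *Gm14296* they were *Gm14305* (r = 0.97), *Zfp966* (r = 0.97) and *Zfp965* (r = 0.97). For *Gm14434* they were *Gm14308*, *Gm4724* and *Gm14305* (r = 0.98 for each). The most opposite were *Cep78* and *Dnah6* for all 3 (r from −0.96 to −0.92), with *Eps8l1* for the first 2 and *Ints7* for *Gm14434*. These coefficients, over 15955 genes and 32 mice, describe mainly the separation of the 2 alleles that the choice of genes fixed. Over the 16 *APOE*3 mice alone, the closest genes lay outside the region: *Tmc4*, *Ly6a* and *Dcdc2b* for *2210418O10Rik* (r = 0.88, 0.87 and 0.87), *Rps6ka3*, *Pkhd1l1* and *Gm13830* for *Gm14296* (r = 0.87, 0.85 and 0.85), and *Olfm3*, *AU041133* and *Aspa* for *Gm14434* (r = 0.97 for each). Without mice 61 and F6, which had the 2 highest *Gm14434* levels, the last 3 were at r = 0.91, 0.92 and 0.90 over 14 mice. The other 6 were between 0.78 and 0.88. Each list holds the 3 highest of 16182 coefficients, so high values follow in part from that pick. Both sexes were pooled, and 65.2% of the genes tested differed between the sexes in *APOE*3 mice. The part of sex in these coefficients was not tested. No gene was on 2 of these lists, including those of the 2 genes with identical coding transcripts. As the chosen genes were left out, the lists do not show how closely the 3 followed one another.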

How the data were processed

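RNA from the cerebral cortex of 48 mice, perfused before collection, was extracted with TRIzol and RNeasy columns and made into stranded mRNA libraries. Single-end reads were aligned by the authors to mm10 RefSeq with TopHat2 2.0.8b in Partek, keeping uniquely mapping reads. The authors deposited CPM values per gene, in 1 table for *APOE*-TR mice and 1 for B6 mice, normalized separately.

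Low CPM values were whole multiples of the CPM of 1 read, within 0.1 read, for 95.3% to 96.4% of low values per *APOE*-TR mouse and 75.6% to 89.4% per B6 mouse. Reads per gene and depth were estimated from this step, with the lowest value of each mouse taken as no reads. Deposited CPM were thus read as 1 read above the count. Count tests (edgeR 4.0.16, DESeq2 1.42.0) on recovered reads were run as alternatives for *APOE*-TR mice only. Of each table, a further 4 listings were left out, and 0 numeric columns were unused. Mouse F6 is a column whose number no title of its group gives, so it was placed by its group alone. The depth sets a counting error that is largest for the *APOE*4 values of *2210418O10Rik* and *Gm14296*.

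Tests used limma 3.58.1 in R 4.3.3, with a mean-variance trend, on log2(CPM + 0.5) after TMM scaling and a filter on low values, with Benjamini-Hochberg adjustment over all genes tested, at 5% FDR or, for nPM, an unadjusted p of 0.005. Mice were grouped by their labels and each is a separate animal. Genes named were the 3 chosen genes, genes of the region and of the cofactor list that passed 5% FDR or had the lowest or highest difference, and for each chosen gene the 3 most alike and the 3 most opposite. *Gm6710*, *Gm14405*, *Gm14403*, *Gm14322*, *Gm14327*, *Edn3*, *Phactr3*, *Trim28* and *Setdb1* fall outside this rule and were named after their values were seen. The genes and lists were chosen with earlier results of these data known. Zinc finger genes were those with at least 3 C2H2 matches in translated GENCODE vM21 coding sequences. Alternatives covered scaling, pseudocount, filter, tool and leaving out each mouse. Leaving out *APOE*3 female controls 61 and F6 together, and the count of the stretch without the chosen genes, were chosen after seeing the data. On simulated data, the 32-mouse model recovered 100 of 100 genes changed by 0.75 and 100 of 100 changed by 1.5 on the log2 scale, with 9 false calls among 16290 genes. For nPM in *APOE*3 males, 63 of 100 and 98 of 100 were recovered, with 9 false calls among 16912 genes. The simulation gave all genes the same relative spread beyond counting error and changed no gene of few reads. Its rates therefore need not hold for the *APOE*4 levels of *2210418O10Rik* and *Gm14296* or for nPM in other strata.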

Additional observations from a re-analysis of the deposited data

Results flagged for a closer look

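Among 36 groups of 4 mice (3 genes in 12 groups), 3 held a mouse far from the other 3 by Dixon's ratio at the 95% level, which chance flags in about 1 in 20 groups. *2210418O10Rik* was at 0.671 CPM in *APOE*4 male control mouse 21, against 0.376 to 0.426 CPM in the others, and at 0.232 CPM in *APOE*4 male nPM mouse 93, against 0.412 to 0.433 CPM. *Gm14434* was at 6.70 CPM in B6 female control mouse 42, against 4.59 to 4.81 CPM in the others. Of 35 other genes of the region, 4 had an allele difference that itself differed between sexes in limma, where 20.5% of all genes passed: *Gm14295* by −1.02 (standard error 0.224, adjusted p = 0.036), *Atp5e* by −0.77 (standard error 0.214, adjusted p = 0.036), *Phactr3* by −0.22 (standard error 0.0731, adjusted p = 0.0407) and *Zfp831*, in the opposite direction, by 0.55 (standard error 0.186, adjusted p = 0.0427) on the log2 scale. Without *APOE*3 female controls 61 and F6 none of the 4 passed, at −0.78, −0.47, −0.20 and 0.27 (adjusted p = 0.107, 0.107, 0.128 and 0.149 from limma).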

How the results depend on the processing

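No paired analysis was possible because the groups compared share fewer than 2 animal numbers. The count of lower zinc finger neighbours (13) ran from 10 to 14 over processing alternatives and from 12 to 16 without single mice, and their count over the 4 strata (37) from 29 to 45 and from 35 to 44. The counts of 0 for nPM, allele by nPM and allele by sex stayed at 0 in every alternative run. Of the 6 sex tests in *APOE*-TR mice, 3 passed 5% FDR, against 1 with at least 10 reads required (*2210418O10Rik* and *Gm14296* were not tested there), 1 without *APOE*3 female controls 61 and F6, and 2 to 4 without single mice. Of the 3 in B6 mice, 2 passed, against 1 with no filter and 1 to 2 without single mice. With at least 10 reads required 1 passed, and *Gm14434* and *2210418O10Rik* were not tested there. The B6 median lay between the alleles for 2 genes on deposited CPM and for 3 on each of 3 other scales. Over all genes, 586 were lower and 365 higher in *APOE*4, against 1295 and 707 with DESeq2, 75 and 32 in controls alone and 106 and 59 in nPM mice alone. The lower count was 300 without *APOE*4 female control 26 and 1255 without *APOE*3 female nPM mouse 67. The cause was not tested. With recovered reads, edgeR gave −5.71 for *2210418O10Rik* and −5.84 for *Gm14296*. Few reads in *APOE*4 mice and the wide spread in B6 mice limit how small a response could be detected.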
